A study of Homo sapiens with 6 samples.

Results

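Keratin transcripts were followed in CAOV2 human ovarian cancer cells after silencing of TAZ. The genes are 8 keratins chosen by symbol, with earlier results of these data known. They are KRT7, KRT8, KRT80, KRT18, KRT19, KRT20, KRT17 and KRT23, of which 6 had a row among the 17211 genes of the deposited table. KRT17 and KRT23 were not analysed here. WWTR1 encodes TAZ, which, like its relative YAP, turns on genes together with TEAD factors and is held in check by the Hippo kinases. One group was 3 samples given siRNA against TAZ (siTAZ), and the other was 3 samples given a non-targeting siRNA (siNT). All 6 were otherwise treated alike, with 100000 cells seeded per well, 100 pmol of siRNA and 6 µL of Lipofectamine RNAiMAX for 2 days, collection on day 3, and growth in serum-supplemented DMEM. The labels name a single siRNA product per group, so effects of that product and of the loss of TAZ cannot be told apart. They call CAOV2 both a cell line and primary cells. The titles call the samples biological replicates, but no label says whether cultures were separate, so p-values reflect only how far these samples spread, and part of that may be technical.

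Keratins are the intermediate filament proteins of epithelial cells. A type I (acidic) and a type II (basic) keratin pair to form the filament, so a cell's keratin makeup is described by its members of each type. KRT8 with KRT18 is the basic pair of simple epithelia, joined by the type II KRT7 and the type I KRT19 in ductal and many glandular epithelia, while the type I KRT20 is typical of gut epithelium. Pathologists use KRT7 together with KRT20 to help place the origin of carcinomas, with ovarian carcinomas of most kinds positive for KRT7 and negative for KRT20. KRT80 is a type II keratin linked to desmosomes and to the periphery of differentiating cells.

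The 6 keratins have related coding sequences. Over the aligned coding sequence of GENCODE release 29 transcripts, KRT7 and KRT8 were 76.8% identical with a longest shared run of 41 bases. KRT8 and KRT80 were 68.7% identical with a longest shared run of 65 bases. The coding lengths were 1407 bases for KRT7, 1449 for KRT8 and 1356 for KRT80. Whether a read could lie wholly within a shared run was not tested. The genes of KRT7, KRT8, KRT80 and KRT18 lie on chromosome 12 and those of KRT19 and KRT20 on chromosome 17. KRT18, although of type I, sits beside KRT8 there.

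Values are those deposited, reads over a size factor for each library, with reads in genes of 28458503 to 34488196 in siTAZ libraries and 25478595 to 28928432 in siNT libraries. WWTR1 was 16.1-fold lower in siTAZ libraries, at 266 ± 21 against 4278 ± 73.2 in siNT libraries (SD, n = 3 each). YAP1 was 4875 ± 185 in siTAZ and 5992 ± 213 in siNT libraries. The contrast was broad: of 17204 genes tested by limma, 55.8% passed an adjusted p of 0.05, 28.3% as higher and 27.5% as lower. Of markers of ovarian epithelial cancer, 8 of 10 were in the table with 4 higher, 1 lower and 3 that did not pass, and they summed to 4489 to 4792 in siTAZ and 7619 to 8124 in siNT libraries. The tight junction gene CLDN4, the lower one, made up most of that sum, at 2557 ± 111 in siTAZ and 6980 ± 240 in siNT, while the adhesion molecule genes EPCAM, at 1361 ± 42 in siTAZ and 501 ± 10.3 in siNT, and CDH1, at 579 ± 15 in siTAZ and 256 ± 15.6 in siNT, were higher. PAX8, a transcription factor used to identify such tumours, was low at 18.2 ± 3.28 in siTAZ and 28.8 ± 13.9 in siNT libraries, and WT1 and SOX17 were not analysed here. Of 10 stromal and endothelial markers, 5 were in the table, with sums of 5271 to 6064 in siTAZ and 4592 to 5331 in siNT, most of it LUM, which did not pass. COL3A1, at 1408 ± 94.2 in siTAZ and 661 ± 76.9 in siNT, and PDGFRB, at 34.2 ± 4.97 in siTAZ and 10.1 ± 4.7 in siNT, were higher, and COL1A2, at 1.30 ± 1.14 in siTAZ and 12.6 ± 2.69 in siNT, was lower. Of 7 immune markers, 3 were in the table, with sums of 268 to 318 in siTAZ and 137 to 145 in siNT. LYZ, at 127 ± 18.8 in siTAZ and 20.9 ± 1.92 in siNT, passed as higher. CD14, at 115 ± 1.36 in siTAZ and 61.9 ± 8.08 in siNT, also passed as higher. CD68, at 52.4 ± 6.48 in siTAZ and 58.3 ± 6.14 in siNT, did not pass. PTPRC and CD3E were not analysed here.

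All 6 measured keratins passed the test, 3 lower and 3 higher in siTAZ, and the groups' libraries did not overlap for any of them. KRT7 and KRT80, both of type II, and KRT18 of type I were lower. KRT19 and KRT20 of type I were higher, and KRT8 of type II was higher by a small amount. Among all genes tested the share passing was 55.8%, and groups did not overlap for 61.4%. Among the 6343 genes whose mean reached 1000, the share passing was 68.3%. Passing was thus common in this contrast, also above that mean. The listed keratins other than KRT20 had means of 6401 to 37276, well above that floor. A change of at least 2-fold that passed was less common, at 10.6% of genes, and KRT7 and KRT20 were the listed keratins beyond it. In a bulk sample, fewer cells expressing a keratin and less of its RNA per cell cannot be told apart.

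**Figure D1:**
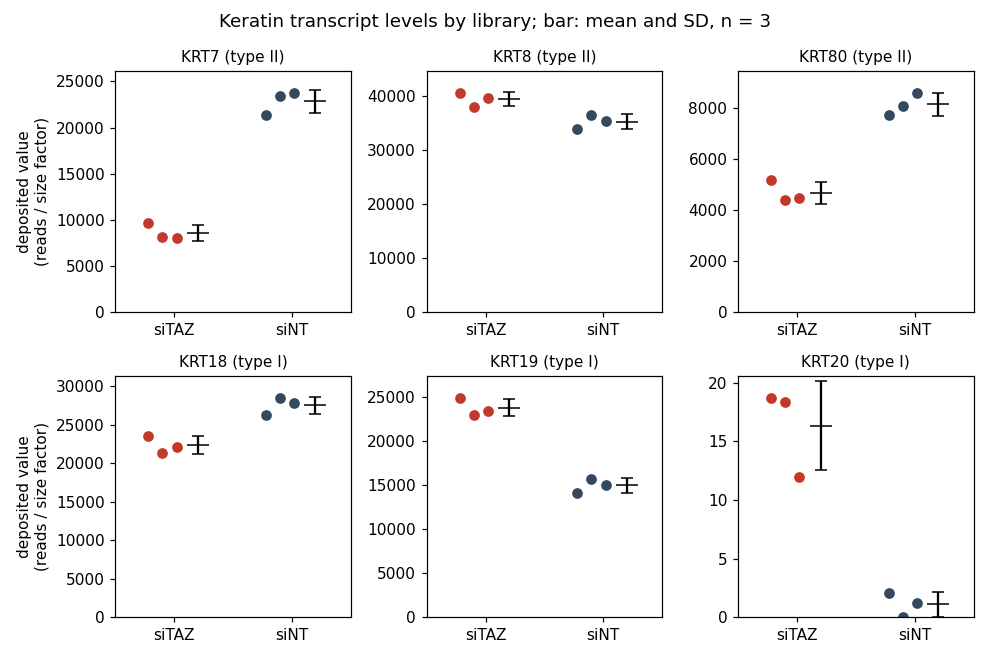
Deposited value (reads divided by the size factor) of each of the 6 measured keratins in each library, with siTAZ in red on the left and siNT in dark blue on the right of each panel; the black mark and bar are the mean and SD of 3 libraries, and each panel has its own axis starting at 0. The siTAZ points lie below the siNT points for KRT7, KRT80 and KRT18 and above them for KRT8, KRT19 and KRT20.

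KRT7, the type II keratin of ductal and glandular epithelium, had values of 9618, 8118 and 8074 in siTAZ libraries, against 21403, 23367 and 23771 in siNT libraries. Each siTAZ library stood far below every siNT library, and siTAZ replicate 1 was the highest of its group. KRT7 was 2.66-fold lower, at 8604 ± 879 in siTAZ and 22847 ± 1266 in siNT (SD, n = 3 each; log2 fold change -1.41, standard error 0.06, limma adjusted p = 1.2e-11). The log2 fold change ran from -1.50 to -1.36 over 15 other settings, and the call held in each.

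KRT80, the other type II keratin that was lower, had values of 5162, 4396 and 4467 in siTAZ libraries, against 7729, 8064 and 8587 in siNT libraries. The groups were well apart, and siTAZ replicate 1 was again the highest of its group, as it was for every measured keratin, lower or higher. KRT80 was 1.74-fold lower, at 4675 ± 423 in siTAZ and 8127 ± 432 in siNT (log2 fold change -0.80, standard error 0.06, limma adjusted p = 6.6e-09).

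KRT8, the main type II keratin of simple epithelia, had values of 40536, 37933 and 39570 in siTAZ libraries, against 33785, 36469 and 35364 in siNT libraries. The lowest siTAZ library lay just above the highest siNT library. KRT8 was 1.12-fold higher, at 39346 ± 1316 in siTAZ and 35206 ± 1349 in siNT, with a log2 fold change of 0.16 and a 95% interval of 0.06 to 0.26 (limma adjusted p = 0.0084).

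KRT18, the type I partner of KRT8, had values of 23596, 21379 and 22120 in siTAZ libraries, against 26251, 28466 and 27769 in siNT libraries. All siTAZ libraries were below all siNT libraries, by a margin smaller than that of KRT7 or KRT80. KRT18 was 1.23-fold lower, at 22365 ± 1129 in siTAZ and 27495 ± 1133 in siNT (log2 fold change -0.30, standard error 0.05, limma adjusted p = 7.0e-05). KRT8 and KRT18, neighbours on chromosome 12, thus moved in opposite directions. Their annotated exons share 525 bases on opposite strands. The library kit keeps strand, but no source used here gives the strand setting of the counting, so reads of that overlap may have been counted for neither or for either gene.

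KRT19, a type I keratin of ductal epithelium that lacks most of the tail domain, had values of 24891, 23013 and 23429 in siTAZ libraries, against 14123, 15710 and 15063 in siNT libraries. Every siTAZ library exceeded every siNT library by a wide margin. KRT19 was 1.59-fold higher, at 23778 ± 986 in siTAZ and 14965 ± 798 in siNT (log2 fold change 0.67, standard error 0.05, limma adjusted p = 6.5e-09).

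KRT20, the type I keratin of gut epithelium, was scarce in both groups. Its values were 18.7, 18.4 and 11.9 in siTAZ libraries, against 2.09, 0 and 1.21 in siNT libraries. These values rest on 52 reads in the siTAZ libraries and 3 in the siNT libraries. The ratio of the summed reads, corrected for size factors, was 14.6 with an exact 95% interval of 4.73 to 73.1 that covers counting error only. The log2 fold change was 3.17 (SE 0.51, limma adjusted p = 5.0e-05) and was 1.24 with a pseudocount of 10 in place of 1, so the size of the rise depends on the pseudocount. KRT20 fell outside a filter of 1 CPM in 3 libraries.

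Genes of gut epithelium were higher beside KRT20. Of 8 gut markers, 6 were in the table, all 6 passed as higher, against 28.3% of all genes, and their sum was 28510 to 29214 in siTAZ and 11062 to 11743 in siNT libraries. The gut list was chosen with earlier results of these data known, so its share passing is a description and not independent support. The cadherin CDH17 was 16127 ± 118 in siTAZ and 5754 ± 264 in siNT, and villin, VIL1, was 8178 ± 280 in siTAZ and 3120 ± 300 in siNT (limma adjusted p = 2.1e-13 and 7.1e-12). The trefoil factor TFF3 was 1024 ± 74 in siTAZ and 363 ± 23.7 in siNT, and the homeobox factor CDX2 was 844 ± 34.1 in siTAZ and 290 ± 27.1 in siNT. MUC2 and GPA33 were not analysed here. The part of these genes in the KRT20 result was not tested.

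**Figure D2:**
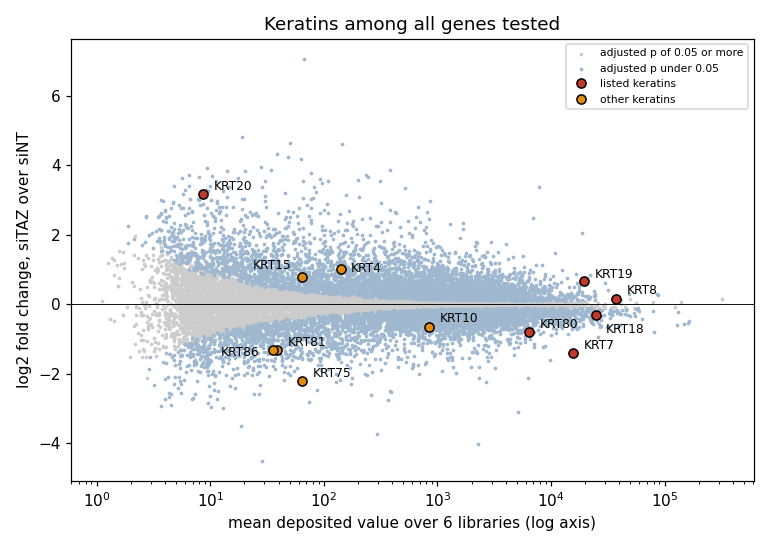
Log2 fold change of siTAZ over siNT (vertical axis) against the mean deposited value over 6 libraries (horizontal log axis) for the 17204 genes tested, in blue where the limma adjusted p was under 0.05 and in grey otherwise. The 6 listed keratins are in red and 6 other keratin genes in orange; KRT7 is at -1.41 among genes of high level, and KRT20 at 3.17 among genes of low level.

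The promoter of KRT20, the listed keratin with the largest log2 fold change, is shown with that of KRT75, the keratin outside the list with the largest log2 fold change, since TAZ acts through TEAD factors. The 250 bases before the annotated start are from RefSeq (GRCh38.p14), both on the minus strand, and capitals mark matches to a motif.
KRT20, chr17:40885243-40885492: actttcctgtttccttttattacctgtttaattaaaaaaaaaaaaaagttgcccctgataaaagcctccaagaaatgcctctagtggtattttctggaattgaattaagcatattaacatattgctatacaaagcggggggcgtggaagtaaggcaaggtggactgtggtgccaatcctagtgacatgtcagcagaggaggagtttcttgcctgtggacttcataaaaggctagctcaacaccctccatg
KRT75, chr12:52434372-52434621: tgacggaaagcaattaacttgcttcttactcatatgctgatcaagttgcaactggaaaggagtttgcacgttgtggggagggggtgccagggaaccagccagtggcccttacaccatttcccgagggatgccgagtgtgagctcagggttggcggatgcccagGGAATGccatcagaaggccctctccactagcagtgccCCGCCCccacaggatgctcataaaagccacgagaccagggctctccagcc
Both strands were searched for the TEAD core CATTCC, the AP-1 motif TGANTCA, the GC box GGGCGG and the TATA box TATAAA, none of which overlapped another. The KRT20 window held none of these letters. The KRT75 window held 1 TEAD core, whose first base lies 87 bases before the start, and 1 GC box, 50 bases before it, both on the other strand. Over 35116 promoter windows of the same length, 11.9% held the TEAD core, 6.57% the AP-1 motif, 42.6% the GC box and 10.7% the TATA box. Of the 12 keratin genes in the table, 5 had a promoter in the RefSeq table used, KRT8, KRT20, KRT4, KRT10 and KRT75. KRT75 was the 1 of these 5 with a TEAD core, and of the other motifs KRT10 held 1 TATA box while KRT4 and KRT8 held none. A match describes letters and is not a bound site.

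Levels of different genes were compared per kilobase of the principal transcript. In siTAZ libraries the order was KRT8 at 20907 ± 699 per kb, KRT19 at 17106 ± 710, KRT18 at 15000 ± 757, KRT7 at 4905 ± 501, KRT80 at 1211 ± 110 and KRT20 at 9.40 ± 2.19. In siNT libraries it was KRT8 at 18707 ± 717 per kb, KRT18 at 18441 ± 760, KRT7 at 13026 ± 722, KRT19 at 10766 ± 574, KRT80 at 2106 ± 112 and KRT20 at 0.634 ± 0.605. KRT19 thus stood above KRT18 and KRT7 in siTAZ libraries and below both in siNT libraries. KRT8 and KRT18 differed by less than their SD in siNT libraries, and the other neighbours in each order stood apart by more than theirs. Among the 16743 genes with a length, KRT7 ranked 374 in siTAZ and 114 in siNT libraries, and KRT19 ranked 78 in siTAZ and 151 in siNT libraries. KRT8 ranked 66 in siTAZ and 81 in siNT, and KRT18 ranked 88 in siTAZ and 84 in siNT.

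The summed keratin level differed little while its makeup did. The 6 keratins took 0.336% ± 0.0139 of reads in siTAZ and 0.356% ± 0.0135 in siNT libraries, with ranges of 0.324% to 0.351% and 0.341% to 0.367% that overlapped. Their sum per kb was 59139 ± 2698 in siTAZ and 63046 ± 2764 in siNT libraries. Of the type II level, KRT7 made up 18.1% ± 1.1 in siTAZ and 38.5% ± 0.649 in siNT, KRT8 77.4% ± 1.31 in siTAZ and 55.3% ± 0.813 in siNT, and KRT80 4.48% ± 0.21 in siTAZ and 6.22% ± 0.215 in siNT. Of the type I level, KRT19 made up 53.3% ± 0.264 in siTAZ and 36.9% ± 0.304 in siNT, and KRT18 46.7% ± 0.268 in siTAZ and 63.1% ± 0.301 in siNT. KRT20 was 0.0293% of the type I level in siTAZ and 0.00223% in siNT.

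The balance of the types differed too. The type I level per kb was 32116 ± 1465 in siTAZ and 29208 ± 1331 in siNT, and the type II level was 27023 ± 1235 in siTAZ and 33838 ± 1460 in siNT. The type I to type II ratio was 1.19, 1.19 and 1.18 in siTAZ libraries and 0.863, 0.874 and 0.852 in siNT libraries. The siTAZ libraries thus all lay above 1 and the siNT libraries all below it. Without division by length the ratio was 0.877 in siTAZ and 0.642 in siNT, so its position relative to 1 depends on the transcript lengths while the order of the groups does not. These sums cover transcripts and hold no test, and KRT17 and KRT23 are not in them.

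**Figure D3:**
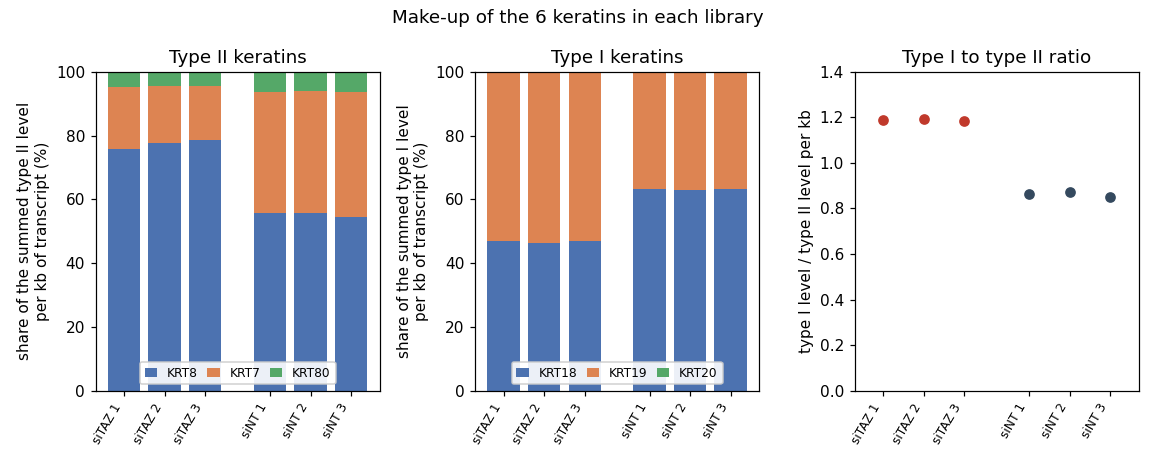
Makeup of the measured keratins in each of the 6 libraries, siTAZ on the left and siNT on the right. Stacked bars give each gene's share in percent of the summed type II (left) or type I (middle) level per kb, KRT20 being too scarce to see, and points in the right panel give the type I to type II ratio, at 1.18 to 1.19 in siTAZ and 0.852 to 0.874 in siNT libraries.

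Ratios within a library do not depend on how libraries are scaled. KRT7 over KRT8 was 0.237, 0.214 and 0.204 in siTAZ libraries and 0.634, 0.641 and 0.672 in siNT libraries, a 2.97-fold lower ratio. KRT80 over KRT8 was 0.119 ± 0.00763 in siTAZ and 0.231 ± 0.011 in siNT libraries. KRT18 over KRT8, the partners of the basic pair, was 0.568 ± 0.0122 in siTAZ and 0.781 ± 0.00413 in siNT libraries. The type I ratio of KRT19 over KRT18 was 1.06 ± 0.0114 in siTAZ and 0.544 ± 0.00709 in siNT libraries, and KRT19 over KRT7 was 2.77 ± 0.165 in siTAZ and 0.655 ± 0.0197 in siNT libraries. The groups did not overlap for any of these 5 ratios. This follows from the single genes, as each ratio sets a lower keratin against a higher one and neither overlapped. Each ratio therefore had a two-sided exact permutation p of 0.1, the smallest that 3 against 3 libraries can give. The adjusted p was 0.117 over the 7 ratios computed, so no ratio could pass 0.05 in this design.

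KRT7 has a gene on its opposite strand, KRT7-AS, an antisense RNA. KRT7-AS had values of 17.7, 9.18 and 12.8 in siTAZ libraries, against 33.5, 49.2 and 54.4 in siNT libraries. The groups did not overlap, and the log2 fold change was -1.73 (SE 0.27, limma adjusted p = 4.0e-05). KRT7-AS over KRT7 was 0.00152 ± 0.000358 in siTAZ and 0.00199 ± 0.000375 in siNT libraries, which overlapped (exact permutation p = 0.3). The exons of KRT7-AS share 282 bases, 16.7% of its own, with those of KRT7 on the other strand, and with the strand setting not given, reads of KRT7 counted for KRT7-AS cannot be told apart from its own. KRT10-AS1, whose exons share 56 bases with KRT10, was 263 ± 20.9 in siTAZ and 334 ± 19.3 in siNT libraries (log2 fold change -0.34, limma adjusted p = 0.0035).

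Of 47 other keratin genes, 6 were in the table and all passed the test, 2 higher and 4 lower, against 28.3% and 27.5% of all genes. KRT10, a type I keratin of stratified epidermis, was the most abundant, with 718, 630 and 633 in siTAZ libraries and 942, 1068 and 1106 in siNT libraries. It was 1.57-fold lower (log2 fold change -0.65, SE 0.07, limma adjusted p = 9.9e-07) with no overlap of the groups. KRT75, a type II keratin of the hair follicle, had 32.2, 17.4 and 18.8 in siTAZ libraries and 97.4, 107 and 111 in siNT libraries. It was 4.61-fold lower, more than any listed keratin that fell, at a much lower level than KRT7 (log2 fold change -2.21, SE 0.21, limma adjusted p = 1.4e-07). KRT4, a type II keratin of internal stratified epithelia, was 2.01-fold higher, at 187 ± 4.87 in siTAZ and 93 ± 15.2 in siNT libraries, and KRT15, a type I keratin of basal cells, was 1.75-fold higher, at 81.4 ± 12.3 in siTAZ and 46.4 ± 7.02 in siNT libraries (limma adjusted p = 3.0e-06 and 0.00082).

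The hair keratins KRT81 and KRT86 were also lower, with 21.3 ± 4.08 and 20.5 ± 8.58 in siTAZ and 56.2 ± 19.8 and 51.2 ± 15.4 in siNT libraries (limma adjusted p = 0.00029 and 0.0012). Their coding sequences are 95.1% identical with a shared run of 605 bases, so the split of reads between them is uncertain. Of 8 markers of stratified epithelium, KRT10 and SFN were in the table and both were lower, with a sum of 3528 to 4098 in siTAZ and 5127 to 5782 in siNT libraries. The defining markers TP63, KRT5 and KRT14 were not analysed here.

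**Figure D4:**
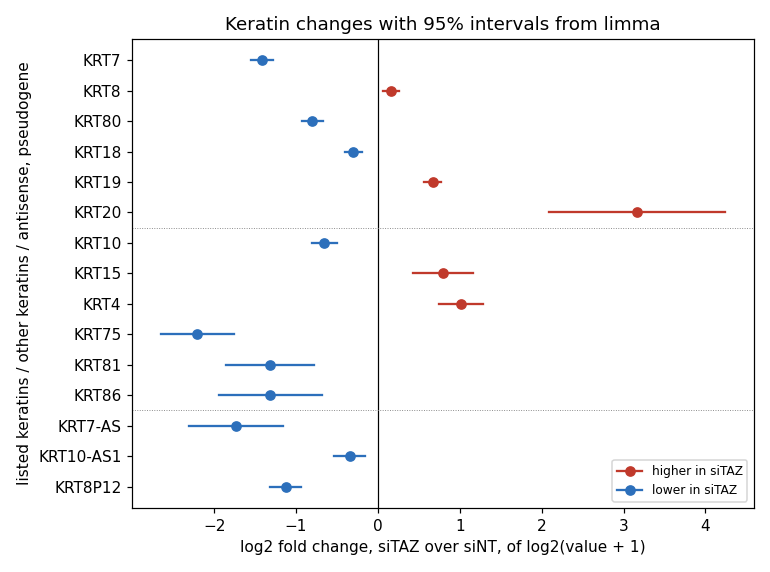
Log2 fold change of siTAZ over siNT with its 95% interval from limma, on the log2(value + 1) scale, for the 6 listed keratins (top), 6 other keratin genes (middle), and 2 antisense genes and the pseudogene KRT8P12 (bottom), with red for higher and blue for lower. The interval of KRT8 lies closest to 0, at 0.06 to 0.26, and that of KRT20 is the widest, at 2.09 to 4.24.

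KRT8 and KRT18 have many processed pseudogenes, copies of their mRNA elsewhere in the genome that can take up reads of the parent gene. The table held 16, with 11 of KRT8 and 5 of KRT18. Their identity to the parent transcript ran from 82.4% to 97.1% for KRT8 and from 84.8% to 94.2% for KRT18. None passed as higher, 2 passed as lower (KRT8P12 and KRT8P33) and 14 did not pass, where 55.8% of all genes passed. All but KRT8P12, at a mean of 291, were scarce, with means of 6.01 to 74.5. The share passing among genes as scarce was not computed, so these pseudogenes cannot be called unresponsive. Pseudogene reads were few beside the parents, at 1.07% to 1.18% of KRT8 in siTAZ and 1.85% to 2.08% in siNT libraries, and at 0.27% to 0.343% of KRT18 in siTAZ and 0.176% to 0.248% in siNT libraries.

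KRT8P12 moved against its parent. It had 182, 183 and 182 in siTAZ libraries and 369, 394 and 436 in siNT libraries, and was 2.20-fold lower (log2 fold change -1.13, SE 0.09, limma adjusted p = 1.3e-08) while KRT8 was higher. Its ratio to KRT8 was 0.00463 ± 0.000168 in siTAZ and 0.0114 ± 0.000852 in siNT libraries (exact permutation p = 0.1, adjusted 0.117). Over 1390 aligned bases KRT8P12 is 90.5% identical to the KRT8 transcript, with a longest shared run of 53 bases. KRT8P33, which is 95.8% identical to KRT8, was 36.2 ± 2.69 in siTAZ and 51.1 ± 7.73 in siNT libraries (log2 fold change -0.48, limma adjusted p = 0.036), a call lost in 8 of 15 other settings. It was lost without siNT replicate 1 (0.066), siNT replicate 3 (0.15), or siTAZ replicate 1 (0.095), 2 (0.05) or 3 (0.07). Without siTAZ replicate 2, KRT8P3 passed as higher (limma adjusted p = 0.047).

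The genes with the profile most like that of KRT7 were taken by the root mean square difference of centred log2 values over the 6 libraries, among genes with a mean of at least 1000. They were ANGPTL4 (difference 0.026), CDCA4 (0.035), CDCP1 (0.056), CLDN4 (0.060) and SPTB (0.062). ANGPTL4, a secreted inhibitor of lipoprotein lipase, was 580 ± 73.7 in siTAZ and 1516 ± 82.9 in siNT libraries. CDCP1, a membrane glycoprotein phosphorylated by SRC kinases, was 1129 ± 63.2 in siTAZ and 2897 ± 101 in siNT. All 5 were between 2.57-fold and 2.85-fold lower, near the 2.66-fold of KRT7. The measure mainly reads the difference between the groups, since the groups differ more than the libraries within them.

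Vimentin, encoded by VIM, is a type III filament protein of mesenchymal cells that many cultured epithelial cancer cells also make. VIM was 124996, 113366 and 117606 in siTAZ libraries and 168998, 174033 and 183478 in siNT libraries, with no overlap (log2 fold change -0.57, SE 0.05, limma adjusted p = 1.5e-07). Per kb, VIM was 1.00 times the summed keratins in siTAZ libraries and 1.39 times in siNT libraries. Of 11 other intermediate filament genes tested, 2 were higher and 3 lower, against 28.3% and 27.5% of all genes, and 6 failed the test, and their median log2 fold change was 0.00 against -0.00 over all genes. SYNM, which encodes synemin, was 2450 ± 28.5 in siTAZ and 1531 ± 27.9 in siNT, and BFSP1, a lens beaded filament gene, was 212 ± 18.4 in siTAZ and 81 ± 14.6 in siNT. The nuclear lamin gene LMNA was 1.19-fold lower, while LMNB2 and NES, encoding nestin, had log2 fold changes of 0.00 and 0.07 and did not pass.

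Desmosomes anchor keratin filaments at the cell border. Of 11 desmosome genes tested, 5 were higher and 3 lower, where 28.3% and 27.5% of all genes were, and 3 failed the test. The median log2 fold change was 0.50. The desmosomal plaque gene PKP2 was 3373 ± 65.6 in siTAZ and 1980 ± 29 in siNT libraries. JUP, plakoglobin, was 8086 ± 423 in siTAZ and 5349 ± 320 in siNT, and DSP, desmoplakin, which binds keratins, was 6497 ± 185 in siTAZ and 4601 ± 80.3 in siNT (limma adjusted p of 5.6e-10, 5.7e-08 and 6.5e-08 for PKP2, JUP and DSP). PERP, a desmosomal membrane protein gene, was 1.27-fold lower. PKP4 had a log2 fold change of 0.06, and DSG1, at 2 to 14 reads per library, one of 0.56, and neither passed.

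Plakins and hemidesmosomes link keratins to other structures and to the basement membrane. Of 9 such genes tested, 3 were higher and 1 lower, against 28.3% and 27.5% of all genes, and 5 failed the test, their median being 0.06. ITGB4, the hemidesmosomal integrin subunit, was 4.70-fold higher, at 299 ± 15.9 in siTAZ and 63.7 ± 20.8 in siNT (limma adjusted p = 4.9e-09). The periplakin gene PPL was 1.96-fold higher and COL17A1, a hemidesmosomal collagen, 1.65-fold higher. DST, dystonin, was 1.12-fold lower (limma adjusted p = 0.013), a call lost under total count scaling (0.084) and without siNT replicate 3 (0.062). Plectin, PLEC, had 44502 ± 4106 in siTAZ and 49194 ± 4251 in siNT libraries, and the tetraspanin gene CD151 7643 ± 590 in siTAZ and 7307 ± 490 in siNT, and neither passed (limma adjusted p = 0.079 and 0.37). PLEC passed as lower without siTAZ replicate 1 (limma adjusted p = 0.0027) or siNT replicate 1 (0.0051).

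Of 14 genes that bind, modify or cleave keratins, 4 were higher and 5 lower, shares near the 28.3% and 27.5% of all genes, and 5 failed the test, their median being -0.05. FAM83H, which recruits casein kinase 1 to keratin filaments, was 4097 ± 215 in siTAZ and 2326 ± 149 in siNT, while CSNK1A1, casein kinase 1 alpha, was 1.31-fold lower. DNAJB6, a co-chaperone that binds KRT18, was 1.45-fold lower, and CASP6, a caspase that cleaves KRT18, was 1.52-fold higher (limma adjusted p = 2.1e-08 and 7.1e-07). CASP8 had a log2 fold change of 0.06 and did not pass.

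Of 21 transcription factor genes reported to act on keratin genes, 8 were higher and 7 lower, beside 28.3% and 27.5% of all genes, and 6 failed the test, their median being 0.09. The epithelial ETS factor ELF3 was 4025 ± 185 in siTAZ and 1746 ± 161 in siNT. FOSL2, an AP-1 subunit, was 2043 ± 183 in siTAZ and 3871 ± 164 in siNT (limma adjusted p of 6.6e-11 and 1.3e-09 for ELF3 and FOSL2). The AP-1 subunit genes JUN, JUNB, FOS and FOSL1 also passed as lower, with log2 fold changes of -0.62, -0.88, -0.62 and -1.05. SP1, a GC box factor, and JUND, an AP-1 subunit, had log2 fold changes of 0.09 and 0.13 and did not pass, though JUND passed as higher without siTAZ replicate 2 (limma adjusted p = 0.037) or siNT replicate 2 (0.024).

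**Figure D5:**
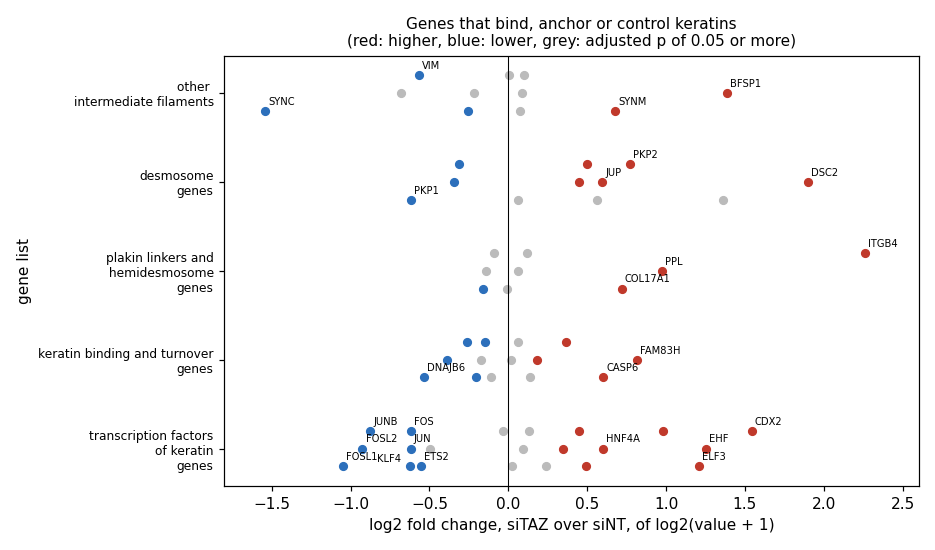
Log2 fold change of siTAZ over siNT on the log2(value + 1) scale for each gene of 5 lists, in red where it passed as higher, in blue where it passed as lower and in grey where the limma adjusted p was 0.05 or more; most called genes beyond 0.5 in either direction are named, and vertical offsets within a list only separate the points. Each list holds genes on both sides of 0, with medians of 0.00, 0.50, 0.06, -0.05 and 0.09 in order down the page.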

How the data were processed

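RNA of 3 siTAZ and 3 siNT samples, grouped by their titles, was sequenced from a stranded mRNA kit, per the labels' protocols. FastQC, HISAT2, HTSeq, DESeq2 and build hg19 are named, per the submitters' processing notes, without versions. The deposited values are a signal, reads divided by 1 size factor per library, as the values show: 100% were whole multiples of the value of 1 read, within 0.001 of a read. The size factors ran from 0.828 to 1.17.

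The main test was limma 3.58.1 (R 4.3.3, intensity trend) on log2 of the deposited value plus a pseudocount of 1. It covered the 17204 genes whose mean reached 1, its single term was the group, and p-values were adjusted by Benjamini-Hochberg over all of them, at a threshold of 0.05. Log2 fold changes are siTAZ over siNT and understate the change of low genes. On the recovered reads, edgeR 4.0.16 called 9630 genes (limma 9604); DESeq2 1.42.0 and voom were further alternatives. Each test was first tried on simulated data. No replicate was a copy of another: chi-square per degree of freedom was 2.75 to 8.62 within groups. Intervals on reads cover counting error only.

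Of 17211 identifiers, 16662 were named from a names table and 81 from GENCODE release 29, whose GRCh38 transcripts gave lengths, identity and exon overlap, and 468 stayed unnamed. Ratios were compared by exact permutation tests.

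The keratins and the other lists were chosen with earlier results of these data known. Named by rule are the listed keratins, WWTR1, YAP1, other keratin genes and pseudogenes up to 15 by mean with a mean of at least 10, keratin antisense genes, the 5 nearest profiles to KRT7, and per list up to 4 called genes of smallest adjusted p and up to 2 uncalled genes of highest mean. Some of them are not reported here.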

Additional observations from a re-analysis of the deposited data

How the results depend on the processing

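Over 1514 recomputed values of 108 results, 1467 were counted as the same. For a single gene this meant the same direction and side of the threshold, and for a ratio difference the same sign. Shares of reads and type I to type II ratios had to stay within their SD. Counts of calls could differ by a limited factor, so 5 listed keratins called with the replicate block against 6 counted as the same. The settings tried for the 7 ratios were chosen after seeing the data. The 6 keratin calls held under every setting that could be fitted, except that KRT8 was lost with the replicate block (limma adjusted p = 0.057, range over its 16 alternatives 0.00054 to 0.057). DST (0.052) and KRT8P33 (0.053) also missed the threshold with the block. The block called 8701 genes against 9604 without it. No label says whether the replicate numbers pair the samples. Deviations from the group mean had correlations of -0.53, -0.30 and -0.09 between same-numbered libraries. With 3 libraries per group these correlations cannot decide whether the samples are paired. KRT20 has no value under the 1 CPM filter. The type I to type II ratio was 1.18 in siTAZ with pseudogene reads added, and without division by length 0.877 in siTAZ and 0.642 in siNT libraries. Total count scaling moved the median of all genes by 0.053 in log2. Pseudogenes called went to 1 in 7 settings, as KRT8P33 was lost. Leaving out 1 library turned the sign of 5 uncalled log2 fold changes, whose ranges were -0.12 to 0.19 for KRT8P13, -0.085 to 0.75 for KRT18P39, -0.042 to 0.027 for LMNB2, -0.054 to 1.06 for DSG1 and -0.012 to 0.11 for the stromal marker LUM. Total count scaling also brought NES, PKP4 and SP1 past the threshold as higher (limma adjusted p = 0.025, 0.044 and 0.0088). Depth limits KRT20 most, with 3 reads in the siNT libraries.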
